A study of Homo sapiens with 6 samples.

Results

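Collagens and laminins are the structural proteins of the extracellular matrix, and each is a trimer of chains encoded by separate genes. The chains described here are all gene symbols in the deposited tables of the form COL, number, A, number, or LAM, a letter from A to C, and a digit: 44 collagen and 12 laminin chains, 56 of the 56638 symbols listed. Their RNA was counted in the established colorectal cancer line HCT116, of human origin, in 3 libraries labelled control and 3 libraries labelled ZFP90 knockout. Both groups were HCT116 cells at passage 16 to 19 grown in RPMI-1640 with fetal bovine serum. In the knockout group, single guide RNAs (sgRNA) had been designed against exon 3 of ZFP90, a KRAB zinc-finger gene. The labels do not say what the control cells received, whether the edited cells were 1 clone, or whether replicates were separate cultures, so each p-value reflects the scatter among these 6 libraries alone, which may be technical.

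Collagen chains share a triple helix of repeated glycine-containing triplets. Fibrillar collagens form the fibres of stroma, collagen IV forms the sheet of the basement membrane, and the so-called FACIT collagens decorate fibrils. Transmembrane collagens sit in the plasma membrane. Laminins are crosses of 1 alpha, 1 beta and 1 gamma chain that polymerise under epithelia, where integrins bind them mainly through the alpha chain. In the gut epithelium the common trimers are built on the alpha chain LAMA5 with LAMB1 or LAMB2 and LAMC1, while LAMA3 and LAMB3 belong to the trimer of epithelial adhesion sites.

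Each library held 13424356 to 17012910 reads in genes. Levels are given as CPM, counts scaled to a common library size by the TMM method, on which 3 reads, the limit that a count of 0 allows for counting error only, equal 0.181 to 0.224. ZFP90 RNA itself was higher in the knockout-labelled libraries, at 86.9, 80.5 and 89.8 CPM, than in the controls, at 47.5, 47.4 and 43.1 CPM (log2 fold change 0.90, SE 0.066, adjusted p = 5.1e-05). RNA counts of the gene do not show whether its protein was lost, which was not tested here. Groups are therefore named below by their labels, and every direction is that of the labelled groups. Control replicate 2 stood apart: relative to the other controls its median gene was at 54.7% on the X chromosome, and at 70.9% on chromosome 9, 75.7% on chromosome 8, 81.1% on chromosome 7 and 88% on chromosome 6, against 102% to 104% on the other autosomes. Of the chains, 21 lie on those 5 chromosomes, and for 8 of the 13 tested ones control replicate 2 was the lowest control. The epithelial markers fixed for HCT116 summed to between 3320 and 3420 CPM in the controls and 3280 to 3400 CPM in the knockout-labelled libraries, with CDX1 at 0 reads in all 6 libraries and VIL1 at 4 reads in each group; KRT18 was the only epithelial marker called (log2 fold change -0.23, adjusted p = 0.0394). Of 11 fibroblast markers 6 were tested, with FAP and POSTN at 0 reads; the list summed to 147 to 235 CPM in controls and 180 to 254 CPM in the others, most of it S100A4, which epithelial cells also express. ACTA2 was the only tested fibroblast marker called (log2 fold change -0.69, adjusted p = 0.0466). The 7 endothelial markers summed to 2.59 to 3.36 CPM in controls and 3.38 to 3.93 CPM in the knockout-labelled libraries, without overlap, and with PECAM1 at 0. Of the 3 tested, none was called: KDR had 65 reads over the controls and 99 over the others (log2 fold change 0.57, adjusted p = 0.0915). TEK had 22 and 29 (0.35, adjusted p = 0.642), and VWF went the other way, with 31 and 23 (-0.46, adjusted p = 0.427). The 10 leukocyte markers summed to 1.65 to 1.79 CPM and 1.51 to 1.77 CPM, with CD3E and MS4A1 at 0. The part of such cells in the values below was not tested. In bulk RNA, fewer cells making a chain and less RNA per cell cannot be told apart.

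Of the 56 chains, 40 reached 10 reads in at least 3 libraries, and the same 40 passed the count filter of the test. The other 16 were not tested. COL19A1, COL6A5, LAMA1 and LAMB4 had 0 reads in every library, and the remaining 12 had at most 45 reads over the 6 libraries. These 12 were COL10A1, COL14A1, COL15A1, COL21A1, COL22A1, COL23A1, COL2A1, COL5A3, COL6A6, COL8A1, COL8A2 and COL9A1. Nearest to the limit from below were COL8A1, with 24 reads over the controls and 21 over the others, and COL21A1, with 10 and 27; each reached 10 reads in 1 library. Nearest from above were COL20A1 and LAMA4, which reached 10 reads only in the 3 controls. Chains such as these passed through the group in which they were high.

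Among the 40 tested chains, 7 rose and 10 fell from control to knockout label, so 42.5% were called, where 21.1% of all 16369 tested genes were called in either direction (9.73% higher and 11.4% lower). A call is an edgeR quasi-likelihood test at a Benjamini-Hochberg adjusted p under 0.05 over all tested genes. At least 2-fold changes were called for 9 chains, or 22.5%, against 3.21% of all tested genes. These 9 include COL20A1 and LAMA4, which passed the count filter only through the controls. The groups did not overlap for 22 chains, or 55%, against 41.2% of all tested genes. The median log2 fold change of the tested chains was 0.073, against 0.008 over all genes, and their median absolute log2 fold change 0.416 against 0.184. By library size alone in place of TMM, 29.6% of all calls were rises, against 46.1% here, while 8 chains rose and 10 fell. The chains moved in both directions, with rises and falls within the same class, and COL6A1 and COL6A3 of collagen VI moved oppositely. Of the 17 calls, 13 held with any single library left out. Those of COL11A2, COL7A1 and COL24A1 were lost without replicate 1 or replicate 3 labelled knockout, and that of COL25A1 without any single library labelled knockout and without control replicate 3. Without control replicate 2, 10 were higher and 10 lower, and without replicate 1 or replicate 3 labelled knockout 5 were higher and 8 lower.

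**Figure D1:**
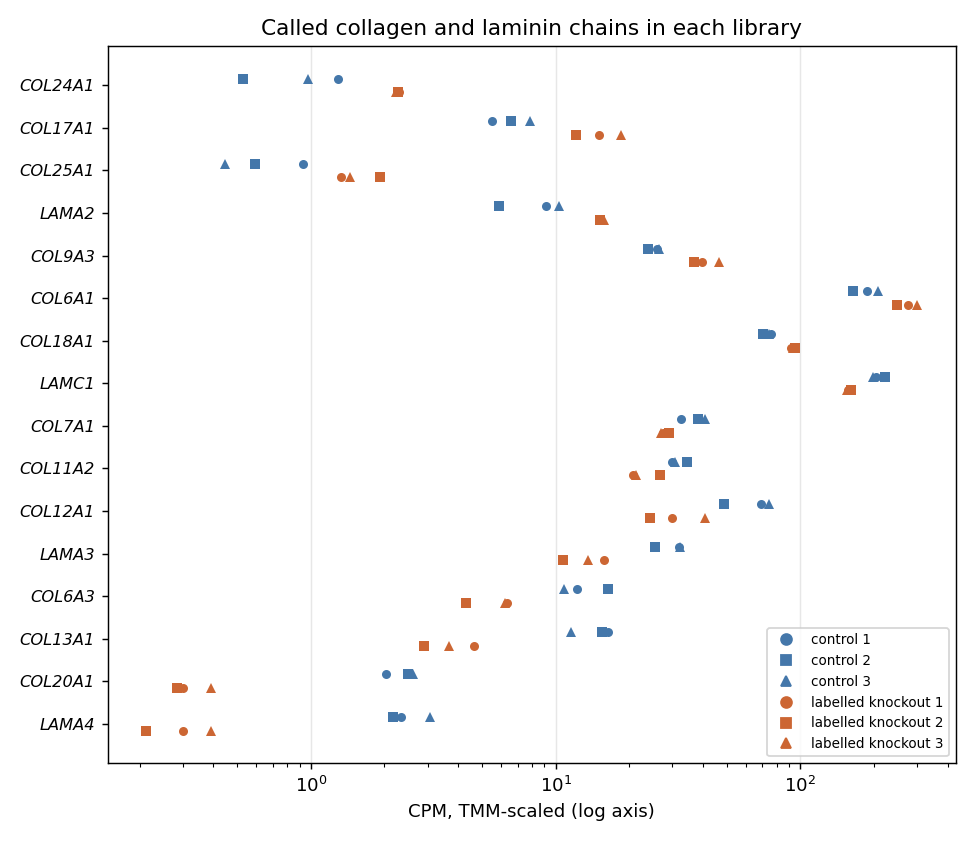
Levels of 16 called chains in each library, in TMM-scaled CPM on a log axis; each point is 1 library, blue for controls and orange for libraries labelled knockout, ordered by log2 fold change from COL24A1 at the top to LAMA4 at the bottom. In 0 of the 16 rows do the groups overlap, but the rows were picked by the test on these same libraries, which favours such gaps. Among all tested genes, called or not, 41.2% had no overlap. COL20A1 and LAMA4 show the widest gaps and passed the count filter only through the controls.

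Laminin alpha chains moved most among the laminins, and the 4 tested ones behaved differently. LAMA5, the alpha chain of the main gut basement membrane trimers, was the most abundant alpha chain, at 45.4 ± 2.31 CPM per kb of exon in controls and 44.2 ± 0.763 CPM per kb in the knockout-labelled libraries (SD, n = 3). Its libraries read 612, 660 and 675 CPM against 619, 638 and 638 CPM, with overlapping groups and a log2 fold change of -0.04 (95% interval -0.16 to 0.08, adjusted p = 0.649).

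LAMA3, the alpha chain of the epithelial adhesion trimer, fell. It had 31.9, 25.5 and 32.1 CPM in the controls and 15.7, 10.7 and 13.6 CPM in the knockout-labelled libraries, so every control was above every other library. The log2 fold change was -1.15 (SE 0.144, adjusted p = 0.000933). Per kb of exon LAMA3 was far below LAMA5, at 2.03 ± 0.257 CPM in controls and 0.909 ± 0.171 CPM in the others (SD, n = 3). LAMA3 spans chr18:23689443-23956222 (GRCh38, GENCODE release 29, plus strand).

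LAMA4, a laminin alpha chain best known from blood vessels and mesenchymal tissue, fell most of all chains. It had 38, 33 and 41 reads in the controls and 5, 3 and 6 in the knockout-labelled libraries, or 2.35, 2.17 and 3.06 CPM against 0.302, 0.213 and 0.393 CPM. The counts were low in all libraries. LAMA4 reached 10 reads only in the controls, so it entered the test through the group in which it was high. The log2 fold change was -3.01 (SE 0.304, 95% interval -3.70 to -2.32, adjusted p = 0.000305). LAMA4 lies on chromosome 6, where control replicate 2 read low, and without that library the value was -3.10.

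LAMA2, the alpha chain of the muscle and nerve basement membrane, went the other way. Its controls read 9.14, 5.86 and 10.3 CPM and the knockout-labelled libraries 14.98, 15.2 and 15.8 CPM. Control replicate 2, low on chromosome 6, was the lowest library. The log2 fold change was 0.87 (SE 0.174, adjusted p = 0.00905) with all libraries and 0.67 without control replicate 2 (adjusted p = 0.000178). The LAMA2 rise was thus also present without the library that reads low there.

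The sequence just before the start of LAMA3 and of LAMA4 is shown because these were the alpha chains that fell. Both are the 250 bases upstream of the start listed by RefSeq (GRCh38.p14), printed 5′ to 3′ on the gene's strand. LAMA3 is at chr18:23872770-23873019 on the plus strand, upstream of a start that lies inside the gene, and LAMA4 at chr6:112254568-112254817 on the minus strand. Capitals mark matches on either strand to 4 motifs: the AP-1 motif TGANTCA, the E-box CACCTG, the GC box GGGCGG and the TATA box TATAAA.
LAMA3: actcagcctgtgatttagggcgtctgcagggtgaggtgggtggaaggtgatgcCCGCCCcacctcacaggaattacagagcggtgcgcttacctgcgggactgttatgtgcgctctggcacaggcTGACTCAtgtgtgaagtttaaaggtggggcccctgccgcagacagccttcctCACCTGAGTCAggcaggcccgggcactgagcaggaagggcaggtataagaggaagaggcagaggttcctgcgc
LAMA4: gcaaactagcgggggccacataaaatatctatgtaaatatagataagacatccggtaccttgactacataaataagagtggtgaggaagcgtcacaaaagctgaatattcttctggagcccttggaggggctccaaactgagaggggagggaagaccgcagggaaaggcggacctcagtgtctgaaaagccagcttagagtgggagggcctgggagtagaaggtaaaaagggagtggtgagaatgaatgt

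In LAMA3 the AP-1 letters begin 125 and 69 bases before the start, and the match at 69 shares bases with an E-box that begins at 73; a GC box on the other strand begins at 197. LAMA4 held none of the 4 motifs. Of 27305 symbols with a window in the RefSeq table, 6.6% held the AP-1 letters, 17.5% the E-box, 42.3% the GC box and 11.1% the TATA box. Windows were listed for 31 of the 40 tested chains, and LAMA3 was the only one of these with AP-1 letters. These matches describe the sequence and are not evidence of binding, and gene counts do not tell which LAMA3 start was used.

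Among the beta chains, 0 of 3 passed the edgeR test after adjustment, against 21.1% of all tested genes, and LAMB1 and LAMB3 had an unadjusted p under 0.05. LAMB3, the partner of LAMA3, had the highest mean of the laminin chains per kb of exon, at 47.7 ± 3.47 CPM in controls and 52.8 ± 2.66 CPM in the knockout-labelled libraries (SD, n = 3). In controls LAMA5 was near it per kb, at 45.4 ± 2.31 CPM, and above it before division by length, at 649 against 224 CPM. LAMB3 read 211, 218 and 242 CPM against 248, 260 and 235 CPM, with overlapping groups (log2 fold change 0.15, 95% interval 0.001 to 0.292, adjusted p = 0.141). LAMB2, the beta chain of mature basement membranes, had a log2 fold change of 0.01 (95% interval -0.12 to 0.14).

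LAMB1, the widely expressed beta chain, read 66.2, 54.4 and 72.0 CPM in controls and 76.5, 74.5 and 85.0 CPM in the knockout-labelled libraries. Its groups did not overlap, but it missed the threshold (log2 fold change 0.29, SE 0.101, adjusted p = 0.0691). LAMB1 lies on chromosome 7, where control replicate 2 read low. Without that library the log2 fold change was smaller, 0.19, and passed the test (adjusted p = 0.0375), as it did without control replicate 3, at 0.38 (adjusted p = 0.0376).

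LAMC1, the gamma chain of most laminins, fell. It read 204, 222 and 198 CPM in controls and 156, 161 and 155 CPM in the knockout-labelled libraries, with no overlap (log2 fold change -0.41, SE 0.0551, adjusted p = 0.0015). LAMC3 on chromosome 9 read 20.6, 12.0 and 21.9 CPM in controls and 17.1, 18.9 and 20.6 CPM in the others, and control replicate 2 was again the lowest. Its log2 fold change was 0.05 (95% interval -0.39 to 0.50) and turned to -0.17 without that library.

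Within the adhesion trimer, LAMA3 RNA was lower relative to LAMB3 RNA in each of the 3 knockout-labelled libraries. Per kb of exon, the ratio of LAMA3 to LAMB3 was 0.0483, 0.0373 and 0.0423 in controls and 0.0202, 0.0132 and 0.0185 in the others. The ratio of LAMA3 to LAMA5 was 0.0508, 0.0376 and 0.0463 against 0.0247, 0.0163 and 0.0208. Both ratios separated the groups fully, with a two-sided exact permutation p of 0.1, the smallest that 3 against 3 allows, and 0.167 adjusted over 10 chain pairs. Both have LAMA3 as numerator over a chain that was not called, so they restate the fall of LAMA3 and do not test it further. Summed over all laminin chains, the libraries read 1570, 1636 and 1684 CPM in controls and 1502, 1533 and 1519 CPM in the knockout-labelled libraries.

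**Figure D2:**
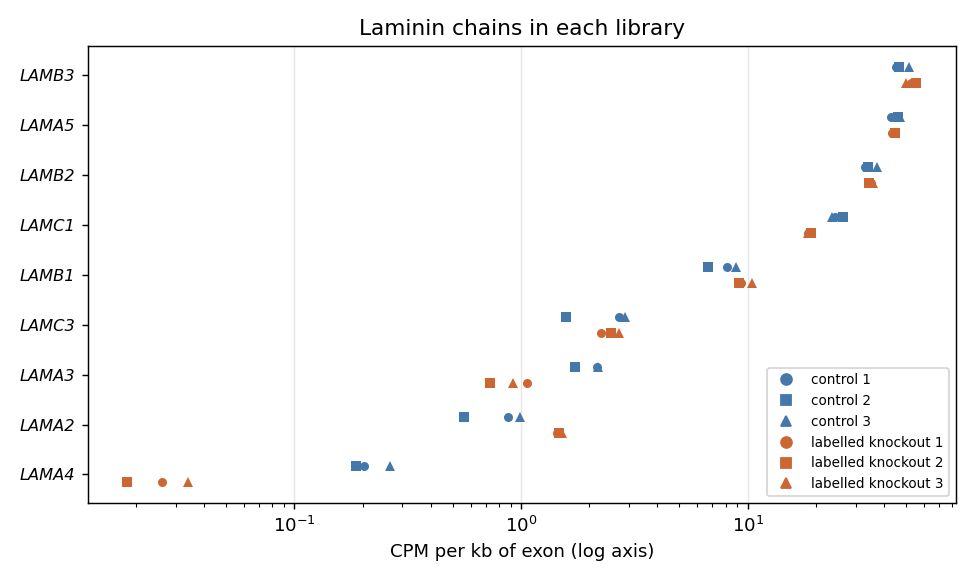
Levels of 9 tested laminin chains in CPM per kb of exon on a log axis, 1 point per library, ordered by their control mean. LAMA3, LAMA4 and LAMC1 lie lower and LAMA2 and LAMB1 higher in every library labelled knockout, while LAMA5, LAMB2, LAMB3 and LAMC3 overlap between the groups. LAMB1 was not called.

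Collagen VI makes beaded microfibrils from the chains COL6A1, COL6A2 and COL6A3, and its chains moved apart. COL6A1 was the most abundant collagen chain per kb, at 34.9 ± 4.18 CPM in controls and 51.2 ± 4.82 CPM in the knockout-labelled libraries (SD, n = 3). It rose from 187, 164 and 208 CPM to 274, 248 and 300 CPM (log2 fold change 0.56, SE 0.0952, adjusted p = 0.00445). COL6A2, its neighbour on chromosome 21, read 141, 147 and 150 CPM against 156, 154 and 152 CPM, a difference that did not pass the test (log2 fold change 0.08, 95% interval -0.03 to 0.18, adjusted p = 0.281).

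COL6A3, the largest chain, fell. It read 12.2, 16.4 and 10.8 CPM in controls and 6.34, 4.33 and 6.22 CPM in the knockout-labelled libraries (log2 fold change -1.22, SE 0.194, adjusted p = 0.0032). It was also the scarcest of the 3 chains: its ratio to COL6A1 per kb was 0.0178, 0.0273 and 0.0142 in controls and 0.0063, 0.00475 and 0.00565 in the others. The ratio of COL6A1 to COL6A2 was 1.33, 1.12 and 1.4 against 1.77, 1.62 and 1.99. Both ratios separated the groups (exact permutation p = 0.1 each, 0.167 adjusted over the 10 pairs). Both contain COL6A1, itself called, so they restate the calls above and do not test them further. COL6A5 had 0 reads, and COL6A6 had 7 reads in each group.

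Collagen IV genes lie in head-to-head pairs that share a promoter region. None of the 6 chains was called, against 21.1% of all tested genes, and 6 chains are too few for this to set the class apart. COL4A5 was the most abundant, at 78.5, 39.7 and 74.2 CPM in controls and 80.7, 96.2 and 95.03 CPM in the knockout-labelled libraries. Both COL4A5 and its partner COL4A6 lie on the X chromosome, and control replicate 2, at 39.7 CPM for COL4A5 and 2.83 CPM for COL4A6, was the lowest library for each. The log2 fold change of COL4A5 was 0.50 (SE 0.213, adjusted p = 0.131) over the 6 libraries. Leaving out control replicate 2 made it smaller, 0.24, and it then passed the test (adjusted p = 0.013). That of COL4A6 was 0.52 (SE 0.295, adjusted p = 0.248) and 0.18 without it (adjusted p = 0.36).

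COL4A3 and COL4A4, the pair best known from kidney basement membrane, kept a nearly fixed ratio. Per kb, COL4A3 to COL4A4 stood at 1.39, 1.36 and 1.39 in controls and 1.36, 1.52 and 1.4 in the others (exact permutation p = 0.4). Neither chain differed between the groups beyond its spread: the log2 fold changes were -0.09 (95% interval -0.27 to 0.09) and -0.14 (95% interval -0.33 to 0.06). COL4A1 and COL4A2, the chains of nearly all basement membranes, were scarcer than COL4A3, at 3.45 ± 0.558 and 3.21 ± 0.189 CPM in controls against 26.4 ± 2.01 CPM (SD, n = 3). Per kb of exon they stood at 0.234 ± 0.0379 and 0.166 ± 0.00977 CPM against 2.89 ± 0.221 CPM. The gap per kb depends on the length used, all annotated exons joined, which is 14.7 and 19.3 kb against 9.12 kb. The log2 fold changes of COL4A1 and COL4A2 were 0.23 (95% interval -0.16 to 0.62) and -0.19 (95% interval -0.59 to 0.22).

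The RefSeq starts of COL4A1 and COL4A2 are 126 bases apart, so the whole stretch between them is shown as the shared upstream sequence of a pair. It is chr13:110307158-110307283 (GRCh38.p14), on the plus strand, with COL4A1 read leftward and COL4A2 rightward from its ends; capitals mark a GC box, and 80.2% of the bases are G or C. Between the starts of COL4A4 and COL4A3 lie 418 bases, and between those of COL4A6 and COL4A5 379 bases, with the first listed start of COL4A6.
COL4A1-COL4A2: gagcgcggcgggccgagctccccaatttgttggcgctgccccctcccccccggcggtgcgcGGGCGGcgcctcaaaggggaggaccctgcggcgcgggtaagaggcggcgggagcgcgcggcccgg

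Fibrillar collagens, the fibre formers, included 9 tested chains, of which 1 rose and 1 fell. That is 22.2% called, near the 21.1% of all tested genes. COL1A1, the main chain of collagen I, was the most abundant, at 70.5, 66.6 and 84.7 CPM in controls and 73.0, 66.8 and 82.9 CPM in the knockout-labelled libraries (log2 fold change 0.01, 95% interval -0.23 to 0.25, adjusted p = 0.964). Its partner COL1A2 was scarce, and the COL1A1 to COL1A2 ratio per kb ran from 15.3 to 20.3 in controls and from 13.1 to 16.8 in the others (exact permutation p = 0.3).

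COL11A2, a cartilage-type chain on chromosome 6, fell from 29.8, 34.4 and 30.8 CPM to 20.7, 26.6 and 21.4 CPM (log2 fold change -0.47, SE 0.108, adjusted p = 0.0159). Its usual partner COL11A1 had a log2 fold change of -0.15 (95% interval -0.96 to 0.66) at 39 to 42 reads per group, and COL2A1 had 1 and 3 reads. The COL11A2 call did not hold without replicate 1 or replicate 3 labelled knockout, where adjusted p was 0.0749 and 0.0733.

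COL24A1, a minor fibrillar chain, rose at low level, from 21, 8 and 13 reads to 38, 32 and 34 reads. That is 1.30, 0.526 and 0.971 CPM against 2.30, 2.27 and 2.23 CPM (log2 fold change 1.27, SE 0.284, adjusted p = 0.0148), with the 3 libraries labelled knockout close together above the controls. The call was lost without replicate 1 or replicate 3 labelled knockout (adjusted p = 0.0589 and 0.0512). Without control replicate 2, the lowest control, the log2 fold change of COL24A1 was 0.98 (adjusted p = 0.0142). COL27A1 on chromosome 9 read 36.0, 26.7 and 43.5 CPM against 51.0, 42.8 and 57.4 CPM and missed the threshold (log2 fold change 0.51, adjusted p = 0.0581). Without control replicate 2, the lowest control, it passed at 0.35 (adjusted p = 0.0129), and without control replicate 3, the highest, at 0.68. COL27A1 also passed by DESeq2 (adjusted p = 0.0232), by upper quartile scaling (0.0396) and by library size alone (0.032). Over its alternatives the adjusted p of COL27A1 ran from 1.57e-06, with no filter beyond 1 read, to 0.198, without replicate 3 labelled knockout. COL5A1, COL5A2 and COL3A1 were not called, with log2 fold changes of 0.37, 0.07 and 0.42.

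The FACIT collagens, which bind the surface of fibrils, held 5 tested chains, of which 1 rose and 2 fell. That is 60% called, against 21.1% of all tested genes. COL20A1, a little-studied member, fell from 33, 38 and 35 reads in controls to 5, 4 and 6 reads in the knockout-labelled libraries, or from 2.04, 2.50 and 2.61 CPM to 0.302, 0.284 and 0.393 CPM. As for LAMA4, the counts were small, and COL20A1 entered the test through the controls alone, where it was high (log2 fold change -2.83, SE 0.272, adjusted p = 0.000233). COL20A1 lies at chr20:63293186-63334851 (GRCh38, plus strand), outside the chromosomes where control replicate 2 read low.

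COL12A1, the FACIT chain of dense connective tissue and tumour stroma, fell from 69.1, 48.8 and 74.4 CPM to 29.8, 24.3 and 41.0 CPM (log2 fold change -1.01, SE 0.2, adjusted p = 0.00845). On chromosome 6, its lowest control was replicate 2, and without that library the value was -1.18 (adjusted p = 6.59e-07). COL9A3, a collagen IX chain, rose from 26.0, 23.8 and 26.6 CPM to 39.8, 36.8 and 46.7 CPM (log2 fold change 0.69, SE 0.097, adjusted p = 0.00171). Of its trimer partners, COL9A2 had a log2 fold change of 0.13 (95% interval -0.28 to 0.53), overlapping that of COL9A3 (0.47 to 0.91), and COL9A1, with 3 reads over all libraries, was not tested. COL16A1 was not called (log2 fold change -0.39, adjusted p = 0.214).

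Transmembrane collagens span the plasma membrane and shed their ectodomains, and all 3 tested chains were called, where 21.1% of all tested genes were. COL13A1, found at adhesion sites and at the nerve-muscle junction, fell from 16.4, 15.5 and 11.6 CPM to 4.65, 2.91 and 3.67 CPM (log2 fold change -1.94, SE 0.191, adjusted p = 0.000272). The lowest control was more than double the highest library labelled knockout. COL17A1, the hemidesmosome collagen that anchors basal epithelial cells to laminin, rose from 5.49, 6.58 and 7.84 CPM to 14.98, 12.1 and 18.6 CPM (log2 fold change 1.21, SE 0.183, adjusted p = 0.00246).

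COL13A1 and COL17A1 thus crossed: per kb of exon, COL13A1 was the higher of the pair in controls, at 2.46 ± 0.432 against 0.939 ± 0.166 CPM, and COL17A1 in the knockout-labelled libraries, at 2.16 ± 0.458 against 0.635 ± 0.149 CPM (SD, n = 3). COL25A1, a brain collagen found in amyloid plaques, rose at low level from 15, 9 and 6 reads to 22, 27 and 22 reads (log2 fold change 1.21, SE 0.31, adjusted p = 0.026). Its groups did not overlap, but the call was lost without control replicate 3 or any single library labelled knockout, with adjusted p from 0.0564 to 0.0832. COL23A1 had 1 read in all.

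The upstream sequences of COL13A1 and COL17A1, the transmembrane pair that crossed, and of COL24A1, which had the largest rise of a chain, are printed with the same motifs in capitals. They are chr10:69801656-69801905 on the plus strand for COL13A1, chr10:104085881-104086130 on the minus strand for COL17A1 and chr1:86156773-86157022 on the minus strand for COL24A1, for which the first of 2 listed starts was taken (RefSeq, GRCh38.p14).
COL13A1: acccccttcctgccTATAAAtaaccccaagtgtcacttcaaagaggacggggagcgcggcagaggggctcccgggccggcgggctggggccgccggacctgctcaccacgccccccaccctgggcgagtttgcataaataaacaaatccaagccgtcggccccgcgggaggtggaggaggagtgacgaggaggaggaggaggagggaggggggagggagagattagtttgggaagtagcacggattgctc
COL17A1: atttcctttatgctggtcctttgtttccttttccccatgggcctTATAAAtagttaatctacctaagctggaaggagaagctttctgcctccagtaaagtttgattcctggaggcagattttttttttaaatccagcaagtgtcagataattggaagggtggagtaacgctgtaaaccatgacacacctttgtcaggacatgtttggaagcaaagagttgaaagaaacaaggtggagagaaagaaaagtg
COL24A1: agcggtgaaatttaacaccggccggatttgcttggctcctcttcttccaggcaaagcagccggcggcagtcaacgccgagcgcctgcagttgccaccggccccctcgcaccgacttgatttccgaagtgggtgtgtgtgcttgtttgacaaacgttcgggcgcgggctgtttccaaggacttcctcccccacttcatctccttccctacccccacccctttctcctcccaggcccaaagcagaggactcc

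The TATA letters begin 236 bases before the COL13A1 start and 206 bases before the COL17A1 start. The windows of COL7A1, of COL6A2, which was not called, and of COL6A6, which was not tested, held them too. So did 11.1% of all windows, so the letters are not particular to this pair. COL24A1 held none of the 4 motifs. In GC content the windows of COL13A1 and COL17A1 differed, at 64% and 40.4%.

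Of the remaining called chains, COL7A1, which builds the anchoring fibrils below hemidesmosomes, fell from 32.4, 38.1 and 40.7 CPM to 27.4, 28.9 and 27.1 CPM (log2 fold change -0.41, SE 0.091, adjusted p = 0.0139). The call was lost without replicate 1 or replicate 3 labelled knockout (adjusted p = 0.0616 and 0.0615). COL18A1, a basement membrane collagen whose tail is cleaved to endostatin, rose from 76.0, 70.5 and 74.8 CPM to 91.3, 95.2 and 93.1 CPM (log2 fold change 0.34, SE 0.0523, adjusted p = 0.00281). Of its exon bases 16.4% overlap SLC19A1 on the opposite strand (GENCODE release 29), and the strand setting of the counting is not given in the sources used here, so reads there cannot be assigned. COL26A1 and COL28A1 were not called, with log2 fold changes of 0.75 and 0.53. Summed over all collagen chains, the libraries read 869, 781 and 939 CPM in controls and 964, 926 and 1042 CPM in the knockout-labelled libraries.

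**Figure D3:**
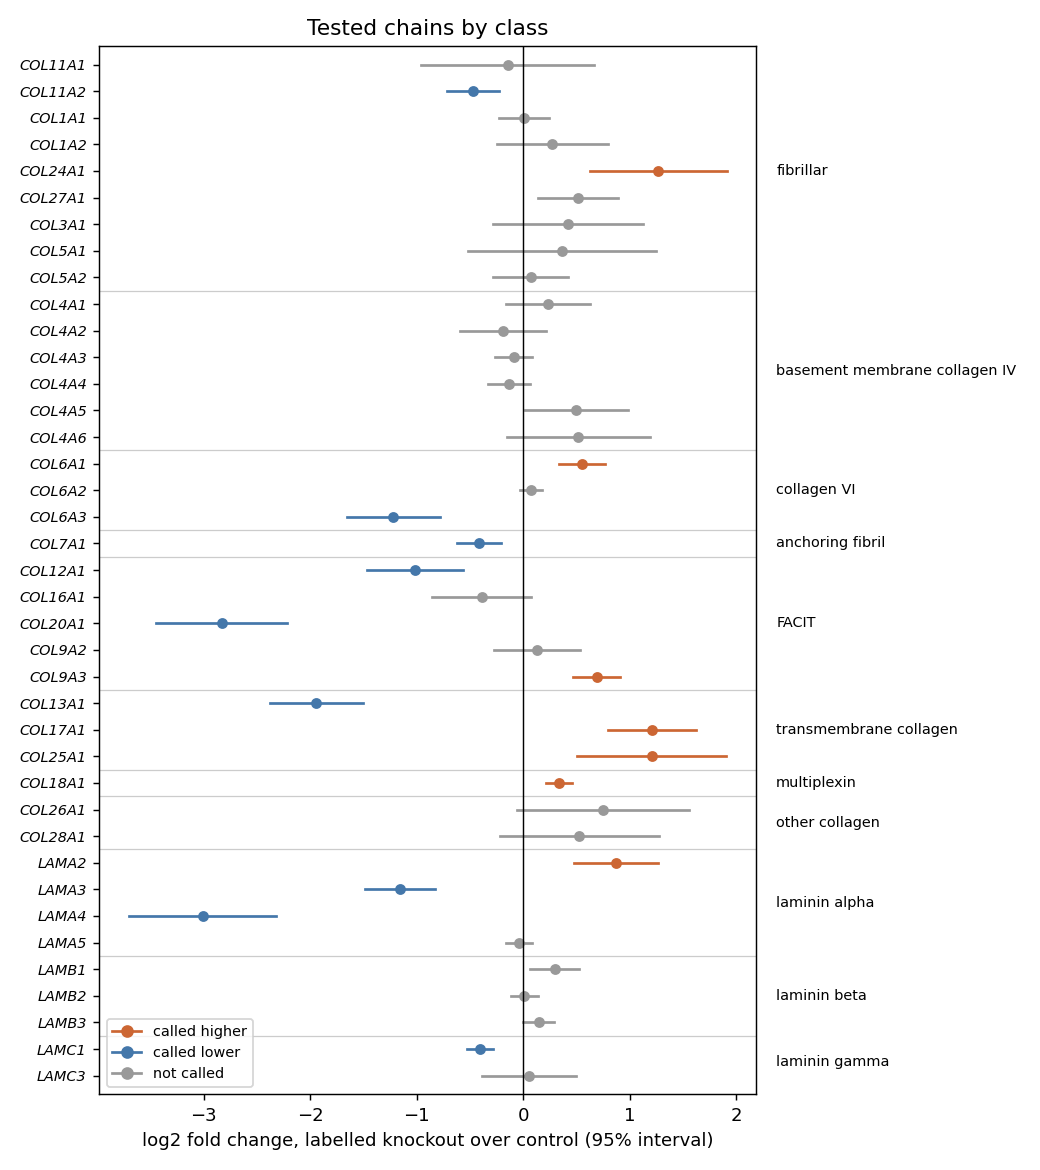
Log2 fold change of 39 tested chains, libraries labelled knockout over controls, with its 95% interval from the edgeR fit, grouped by class; orange marks chains called higher, blue lower and grey not called. Rises and falls stand side by side within collagen VI, FACIT, transmembrane and laminin alpha chains, while all 6 collagen IV chains and all 3 tested laminin beta chains are grey. Of all tested genes 21.1% were called, so classes this small are not set apart by having no call.

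The chromosomes on which control replicate 2 read low held 13 of the tested chains, of which 1 was called higher (LAMA2) and 3 lower (COL11A2, COL12A1 and LAMA4). On the other chromosomes 6 of 27 tested chains were called higher and 7 lower. Over all tested genes on any chromosome, 9.73% were called higher and 11.4% lower, and 13.5% and 14.1% without control replicate 2. Leaving out control replicate 2 kept all 17 calls and added COL27A1, COL4A5 and LAMB1, each on a chromosome where that library read low. Leaving out control replicate 3 also added COL27A1 (0.68, adjusted p = 0.0251) and LAMB1 (0.38, adjusted p = 0.0376), while the call of COL25A1 was lost. Without control replicate 2 the log2 fold changes of COL27A1, COL4A5 and LAMB1 were smaller, at 0.35, 0.24 and 0.19, than with all libraries.

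**Figure D4:**
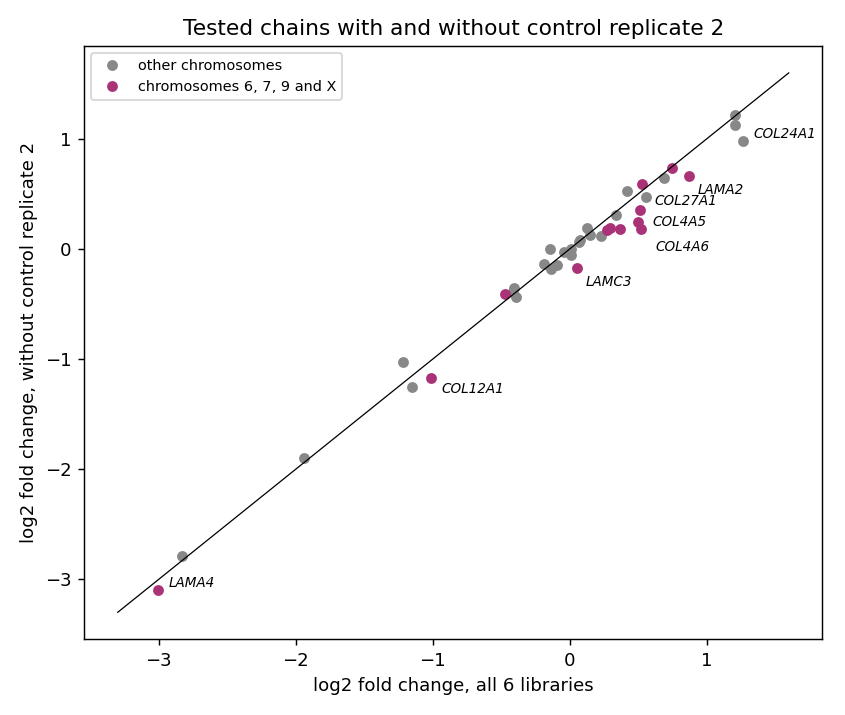
Log2 fold change of 39 tested chains with all 6 libraries (x axis) and without control replicate 2 (y axis), with the line of equality; purple points lie on chromosomes 6, 7, 9 or X, where that library read low. COL4A5, COL4A6, COL27A1, LAMA2 and LAMC3 fall below the line. So does COL24A1 on chromosome 1, from 1.27 to 0.98, while COL6A3 on chromosome 2 lies above it, from -1.22 to -1.03. LAMC3 changes sign, as do COL11A1, COL1A1 and LAMB2.

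The machinery around the chains was described with 5 lists of 82 genes, of which 67 were tested, 7 called higher and 16 lower. The share called was 34.3%, against 21.1% of all tested genes, and the median log2 fold change was -0.11. At least 2-fold changes were called for 1 gene, or 1.49%, below the 3.21% of all tested genes. The groups did not overlap for 46.3%, against 41.2%, and the median absolute log2 fold change was 0.204, against 0.184. Of 18 tested genes for collagen modification and folding, 2 rose and 4 fell (33.3% called). PLOD2, the lysyl hydroxylase of collagen telopeptides, fell by 0.71 on the log2 scale (SE 0.0785, adjusted p = 0.000513). CRTAP, of the prolyl 3-hydroxylation complex, fell by 0.50, and P4HA1, a catalytic subunit of prolyl 4-hydroxylase, fell by 0.38. P3H4, listed under its older symbol LEPREL4, rose by 0.40.

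Of 14 tested genes for procollagen cleavage and cross-linking, 1 rose and 4 fell (35.7% called, against 21.1% of all tested genes). PXDN, the peroxidase that makes the sulfilimine cross-links of collagen IV, had 32.5 ± 1.36 CPM in controls and 13.6 ± 2.66 CPM in the others (SD, n = 3). Its log2 fold change was -1.26 (adjusted p = 0.000287). LOXL4, a lysyl oxidase, fell by 0.91, PCOLCE2, an enhancer of procollagen processing, by 0.96 and the transglutaminase TGM2 by 0.44. Of 9 tested basement membrane partners, 1 rose and 2 fell (33.3% called). TINAGL1 fell by 0.74, FRAS1 by 0.67, and the netrin NTN4 rose by 0.32.

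Of 14 tested collagen and laminin receptors, 1 rose and 5 fell (42.9% called, against 21.1% of all tested genes). The laminin-binding integrin chains ITGA6 and ITGA3 fell by 0.51 and 0.48 (adjusted p = 0.000154 and 0.00049) and ITGA7 by 0.60, and the collagen-binding chain ITGA2 rose by 0.38 (adjusted p = 0.00421). The other falls were named here after their values were seen. They were the collagen receptor DDR2, by 0.49 (adjusted p = 0.0168), and ITGB1, a beta chain of laminin-binding and collagen-binding integrins, by 0.26 (adjusted p = 0.0119). ITGB4, another integrin beta chain in the list, was not called (log2 fold change 0.065, adjusted p = 0.456), and its groups overlapped. Of 12 tested proteinases and inhibitors, 2 rose and 1 fell, so 25% were called, near the share over all tested genes. The inhibitor TIMP2 fell by 0.88 (adjusted p = 2.6e-05), and the membrane proteinase MMP14 and the inhibitor TIMP3 rose by 0.39 and 0.71. Counts of rises in these lists were small and moved with single libraries. Over the 5 lists together, 3 genes were called higher without control replicate 1 and also without replicate 1 or replicate 3 labelled knockout, 4 without replicate 2 labelled knockout, 6 when control replicate 3 was left out and 9 when control replicate 2 was. The falls numbered 12 to 21, and the falls among receptors 3 without replicate 1 or replicate 3 labelled knockout. The falls among modification genes numbered 6 without control replicate 2. Over all tested genes the share called higher moved as well, from 4.55% without replicate 1 labelled knockout to 13.5% without control replicate 2. The share called lower was 6.17% and 14.1% in the same settings.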

How the data were processed

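RNA of 3 control and 3 ZFP90 knockout-labelled HCT116 libraries was measured by RNA sequencing (TruSeq kit, per the labels' protocols). The authors deposited unnormalised counts of reads for each gene symbol; TopHat2 2.0.11, HTSeq and the builds hg19 and GRCh37 are named in the submitters' processing notes, with no strand setting given in the sources used here. Summary lines (31.7% to 32.37% of listed reads) were left out. The test was that of edgeR 4.0.16, run in R 4.3.3 (quasi-likelihood, TMM, filterByExpr with minimum count 10 and total 15, Benjamini-Hochberg adjustment), keeping 16369 genes; SE is the absolute log2 fold change over the root of F. CPM values use TMM-scaled library sizes. Exon lengths and positions are from GENCODE release 29 (GRCh38), matched by symbol, another build than the counts. Each length joins all annotated exons of the gene and can exceed that of its RNA, which lowers the level per kb. For 4 genes older symbols were matched through RefSeq synonyms. Chains, lists and the rule for named genes (all called chains, the highest of each class, trimer or pair partners, up to 4 called genes per list) were chosen with earlier results of these data known. Alternatives were 3 scalings, DESeq2 1.42.0, limma-voom (limma 3.58.1), 3 count filters, the replicate number as a block, adjusted p under 0.01 and each library left out. They were computed for all 40 tested chains. No replicate pair agreed within sampling noise (chi-square per degree of freedom 2.2 to 19.8). In counts simulated for this comparison (16361 genes tested) the test recovered 77.6%, 97% and 100% of seeded changes of 1.5-fold, 2-fold and 4-fold, with 4.21% of its calls false. The simulation gave every gene the same scatter, changed few genes and had no library low on some chromosomes. Its rates may therefore not hold for the real counts. Counts cover all chains of the rule; 1 item among them is not reported here by name or drawn.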

Additional observations from a re-analysis of the deposited data

How the results depend on the processing

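All 17 calls of chains remained under the other scalings, DESeq2, limma-voom and the other filters. COL27A1 was added by upper quartile scaling, library size and DESeq2, and COL27A1, COL4A5, COL4A6 and LAMB1 with no filter beyond 1 read. At an adjusted p under 0.01, 5 chains were higher and 8 lower, and with no filter beyond 1 read 11 were higher. Leaving out each library in turn gave 5 to 10 chains higher and 8 to 10 lower. Over all genes, 986 were higher when only library size was used for scaling. An adjusted p under 0.01 left 618 higher and 869 lower, and leaving out 1 library gave 756 to 2261 higher and 1025 to 2361 lower. In the 5 matrix lists, 4 genes were higher by library size and 2 at an adjusted p under 0.01, and 3 to 9 with 1 library left out.

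Among the 40 tested chains, 6 that were not called turned direction under some setting. By upper quartile scaling the log2 fold change was -0.012 for COL1A1 and -0.011 for LAMB2. By library size it was -0.055 for COL1A1, -0.055 for LAMB2 and -0.006 for LAMC3; this scaling moved the median of all genes to -0.058. With 1 library left out, the values ran from -0.444 to 0.054 for COL11A1, -0.079 to 0.115 for COL1A1, -0.066 to 0.221 for COL5A2, -0.011 to 0.203 for COL9A2, -0.03 to 0.064 for LAMB2 and -0.173 to 0.2 for LAMC3. The cause was not tested. Chains with few reads, such as COL11A1 and COL5A1, have wide intervals at this depth.

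With the replicate number as a block, 9 chains were higher and 10 lower, adding COL27A1 (adjusted p = 0.00576) and LAMB1 (adjusted p = 0.0244) and losing none, and over all genes 1623 were higher and 1840 lower. Same-numbered libraries correlated at 0.06, 0.158 and 0.111 in their deviations from the group means, each above all other pairings, which reached at most 0.043. The labels give no shared source for a number, so the numbers were not taken to pair the libraries.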
